A study of Mus musculus with 15 samples.

Results

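The comparison described here asked whether activation changed accessible chromatin differently in CD4+ T cells with and without Irf5. For each region the change from untreated cells (0 h) to activated cells (72 h) was taken in knockout cells, and the same change in wild-type cells was subtracted. This interaction, on a log2 scale, is positive where activation raised the signal more, or lowered it less, in knockout. Regions came from the merged peak lists of 15 ATAC-seq libraries, and the 83743 regions with a peak in at least 2 libraries were tested, of 111393 in all. The cells were cultured mouse CD4+ T cells of genotype IRF5+/+ (wild type, WT) or IRF5-/- (knockout, KO). There were 4 WT and 3 KO libraries of untreated cells (KO libraries 1, 3 and 4) and 4 of each genotype after 72 h of activation. The activating agent, strain, age and sex, and the part of Irf5 that was deleted, are not given in the sources used here, and nothing says that libraries of a group came from separate mice. The p-values therefore rest on the spread between libraries, which may be technical, and activation cannot be told apart from 72 h in culture.

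IRF5 is an interferon regulatory factor, best known for switching on inflammatory cytokine genes in myeloid cells and B cells downstream of Toll-like receptors and MyD88. Factors of this family bind interferon response elements, built on repeats of GAAA, in promoters and enhancers. T cell activation opens enhancers through AP-1, NFAT and NF-kB factors and closes many elements that are open in resting cells. ATAC-seq reads this out because the Tn5 transposase inserts adapters mainly into open DNA. The value used for each region and library is the highest pileup, the number of fragments stacked at a peak, per 1 M fragments left after duplicates were removed. A region with no peak in a library has the value 0, which means that no peak was called, not that the DNA was closed.

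Depth was 20.5 to 29.0 M fragments per library after filtering, and the lists held 29994 to 69086 peaks. The lowest pileup in a list lay between 0.318 and 0.402 per 1 M fragments, so weaker signal could not enter. The library with 29994 peaks, KO library 3 at 0 h, stood apart: its median log2 signal over shared regions was 0.92, against 1.98 to 2.37 in the other untreated libraries. It moved the median interaction of all tested regions, which was 0.16 with it and −0.12 without it. Peaks per library rose with activation in both genotypes, and the difference between the rises was 0.09 on the log2 scale (two-sided exact permutation p = 0.739), or −0.09 without that library (exact permutation p = 0.487). All 9 T cell markers, Cd4 and Cd3e among them, had peaks in all 15 libraries. Markers of other cells had peaks too. Of 6 B cell markers, 3 (Cd79a, Pax5 and Ebf1) had peaks in all 15 libraries and 3 in none, Cd79b and Ms4a1 among them. Of 7 myeloid markers, Spi1 and Itgam had peaks in all 15, Cd14 in 14, and Lyz2 and Adgre1 in none. Of 6 CD8 and NK cell markers, Cd8b1 and Klrd1 had peaks in all 15, Eomes in 14, Cd8a in 7, and Klrb1c and Ncr1 in none. None of the tested regions of these markers had an interaction past the threshold.

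The interaction passed an adjusted p of 0.05 (limma, Benjamini-Hochberg over all tested regions) in 487 regions, 0.582% of those tested. In 192 (0.229%) it was positive and in 295 (0.352%) negative, and 5533 regions (6.61%) had an unadjusted p under 0.05. For scale, activation itself passed in 51.4% of regions in wild type and 37.5% in knockout. In most of the called regions, 264 (54.2%), the gain with activation was smaller in knockout, with median log2 changes of 2.89 in wild type and 0.00 in knockout. In 263 of them no single knockout library had a peak, which does not show that knockout had no gain. In 95 regions (19.5%) the gain was larger in knockout. In 72 the loss was smaller and in 22 larger. In the other 34 the changes of the genotypes had opposite signs, with medians of −0.14 in wild type and 2.79 in knockout. The sign alone set this class, so a wild-type change near 0 counted too. Quantile normalization turned the split between directions, to 155 positive and 87 negative (64.0% positive, against 39.4%).

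**Figure D1:**
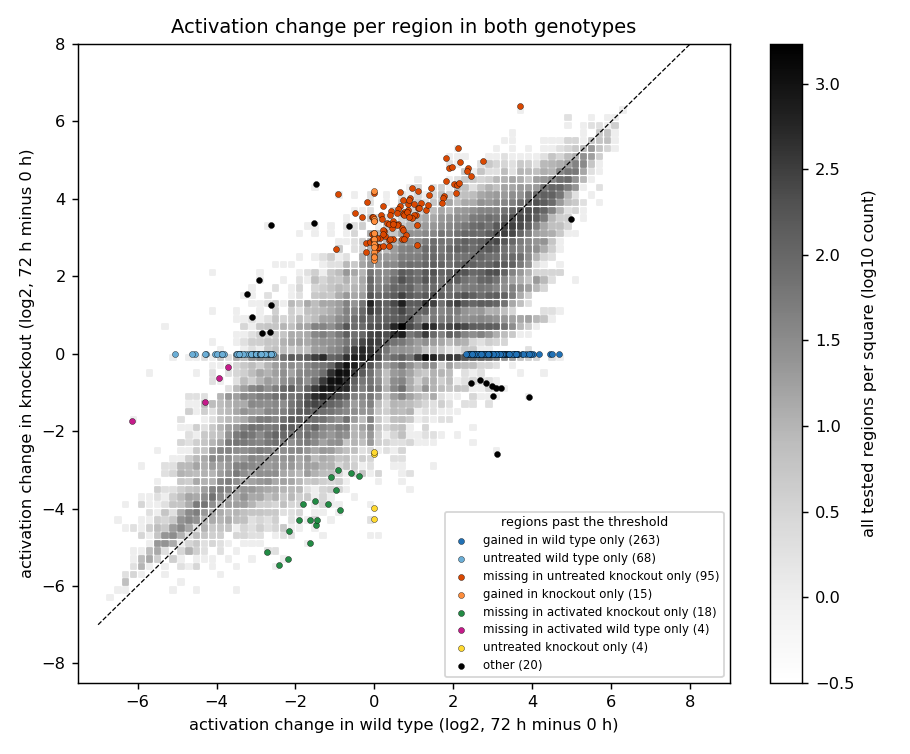
Activation change of each region in wild type (x axis) and knockout (y axis), both log2 of 72 h minus 0 h. Grey squares count all 83743 tested regions and coloured points are the 487 called ones by pattern; points on the dashed line change alike. The 263 regions gained in wild type only lie on the horizontal axis, because knockout has no peak there at either time.

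All 487 called regions lacked peaks throughout at least 1 group. Such a group has the value 0 in every library and so shows no spread. The SE and p-values of called regions therefore rest on the spread in the other groups and can be too small. A pattern here means a set of regions where every library of each group either had a peak or lacked one and exactly 1 of the 4 groups differed from the other 3. All 467 regions with such a pattern were called, with 20 others. This makes the call close to a count of presence. With missing peaks set to the lowest pileup of their list instead of 0, 94 regions passed and 82 of the 487 were among them. With the strongest 29994 peaks of each library, 206 regions passed and 4 of the 487 were among them. The authors' merged lists, made from the pooled libraries of a group, therefore stand beside each pattern as a second look at the same libraries, with no replicates. A merged value is the highest pileup of any merged peak that overlaps the region, and that summit can lie outside the region.

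The promoters of Ifngas1, Pmch and Gm46910, all covered by called regions, are printed to show an all-or-none loss, an AP-1 match and an interferon response match. Promoter windows run from 250 bases before to 50 after a gene's start (RefSeq, GRCm38.p6, the assembly behind mm10). Capitals mark the motif match where there is one. Ifngas1 (chr10:118556476-118556775, minus strand) is a long non-coding RNA gene beside Ifng, Pmch (chr10:88090822-88091121, plus strand) encodes a neuropeptide precursor, and Gm46910 (chr5:41762385-41762684, plus strand) is a predicted gene.
Ifngas1: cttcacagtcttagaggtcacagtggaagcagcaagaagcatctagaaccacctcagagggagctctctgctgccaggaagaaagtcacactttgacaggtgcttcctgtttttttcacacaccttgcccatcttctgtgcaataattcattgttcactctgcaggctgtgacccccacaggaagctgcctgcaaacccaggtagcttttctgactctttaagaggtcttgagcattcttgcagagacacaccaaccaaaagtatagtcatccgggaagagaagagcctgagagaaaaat
Pmch: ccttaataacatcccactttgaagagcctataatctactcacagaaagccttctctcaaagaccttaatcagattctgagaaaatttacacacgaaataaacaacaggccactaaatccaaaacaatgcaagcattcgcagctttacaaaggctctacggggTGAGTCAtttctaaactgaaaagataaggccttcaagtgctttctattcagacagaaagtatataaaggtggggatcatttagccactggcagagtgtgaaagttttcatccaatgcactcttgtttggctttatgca
Gm46910: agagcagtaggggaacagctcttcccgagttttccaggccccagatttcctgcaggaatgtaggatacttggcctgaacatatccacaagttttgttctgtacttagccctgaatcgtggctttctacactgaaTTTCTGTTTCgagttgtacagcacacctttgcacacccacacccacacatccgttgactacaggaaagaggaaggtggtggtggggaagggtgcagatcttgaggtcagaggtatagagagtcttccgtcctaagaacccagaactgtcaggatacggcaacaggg

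The region at the Ifngas1 promoter (chr10:118556455-118556833) had values of 1.07, 0.965, 0.930 and 0.673 in untreated WT and 0.883, 0.536 and 0.877 in untreated KO. After activation it kept peaks in WT (0.527, 0.544, 0.727 and 0.467) and had none in the 4 KO libraries, nor in the merged KO list (interaction −2.49, adjusted p = 0.000868). The Pmch region (chr10:88090821-88091162) had peaks in activated WT alone, at 0.486, 0.762, 0.842 and 0.583 (−2.92, adjusted p = 0.00064). The Gm46910 region (chr5:41761407-41764020) lacked peaks in untreated KO alone. Its values were 0.625, 0.828, 0.769 and 0.554 in untreated WT and 1.01 to 1.42 in activated WT, and 1.11 to 1.31 in activated KO. None of the 3 calls held with missing peaks at the lowest pileup.

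Called regions overlapped 16 promoter windows. An interferon response core (GAAA, 2 bases of any kind and GAAA, on either strand) was found in 1 of the 16, against 3.44% of all 32851 windows. The AP-1 motif TGANTCA (either strand) was found in 1, against 7.81%, and the NF-kB-like letters GGGGNNTCC in 1, against 5.65%. With 16 windows these counts are a description only. Of all called regions, 35 (7.19%) lay within 1 kb of a gene boundary, against 18.1% of all tested regions. The share was 4.18% of the 263 regions gained in wild type only, 13.3% of the 15 gained in knockout only and 15.8% of the 95 missing in untreated KO only. Peaks in these patterns were weak, with median values of 0.649, 0.686 and 0.957 in that order, against 1.32 over all tested regions. The part of peak strength in the shares was not tested.

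The largest pattern was gain in wild type only: 263 regions had a peak in all 4 activated WT libraries and in no other library. Trappc3, which encodes a subunit of a vesicle transport complex, had the smallest p. Its region 1268 bp from the gene (chr4:126260726-126261137) had values of 2.23, 2.25, 2.18 and 1.79 in activated WT and 0 in the other 11 libraries (interaction −4.46 ± 0.31 SE, adjusted p = 1.5e-05). Nevertheless the merged lists gave 1.43 in activated KO against 1.98 in activated WT. The region was thus all-or-none in the single libraries, with a pooled KO value below the WT one but well above the lowest pileup of the lists.

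Itga2, the alpha chain of a collagen-binding integrin, kept the contrast in both views. The region inside the gene (chr13:114880671-114881070) had values of 1.78, 2.83, 1.88 and 2.26 in activated WT and 0 elsewhere (−4.49 ± 0.33, adjusted p = 2.39e-05). The merged list had 2.07 in activated WT and no peak in any other group. Irak3, which encodes an inhibitor of Toll-like receptor signalling, had the same form 2541 bp from the gene (chr10:120204671-120204920): 1.05, 1.23, 1.15 and 0.972 in activated WT (−3.58, adjusted p = 8.31e-05), and a merged peak in activated WT alone, at 1.06. Sesn1, a stress-induced inhibitor of mTORC1, did so at a lower level, with 0.365, 0.472, 0.651 and 0.389 (chr10:41869924-41870290, −2.48, adjusted p = 0.00321).

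Nrp1, a surface receptor found on thymus-derived regulatory T cells, had 1.38, 1.56, 1.57 and 1.28 in activated WT within the gene (chr8:128483401-128483796, −3.95 ± 0.32, adjusted p = 3.28e-05). Here too the merged KO list held a peak, at 0.903 against 1.37. Rab22a, a GTPase of endosomal transport, had the most negative interaction of this pattern (chr2:173662651-173662892, −4.68, adjusted p = 3.82e-05). Its values were 2.19, 3.77, 2.76 and 1.59 in activated WT, and merged values were 2.38 in WT and 1.51 in KO. Cse1l, a nuclear export receptor for importin alpha (−3.97), and Mbnl1, a splicing regulator (−3.75), behaved likewise, with merged KO values of 0.870 and 1.13.

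**Figure D2:**
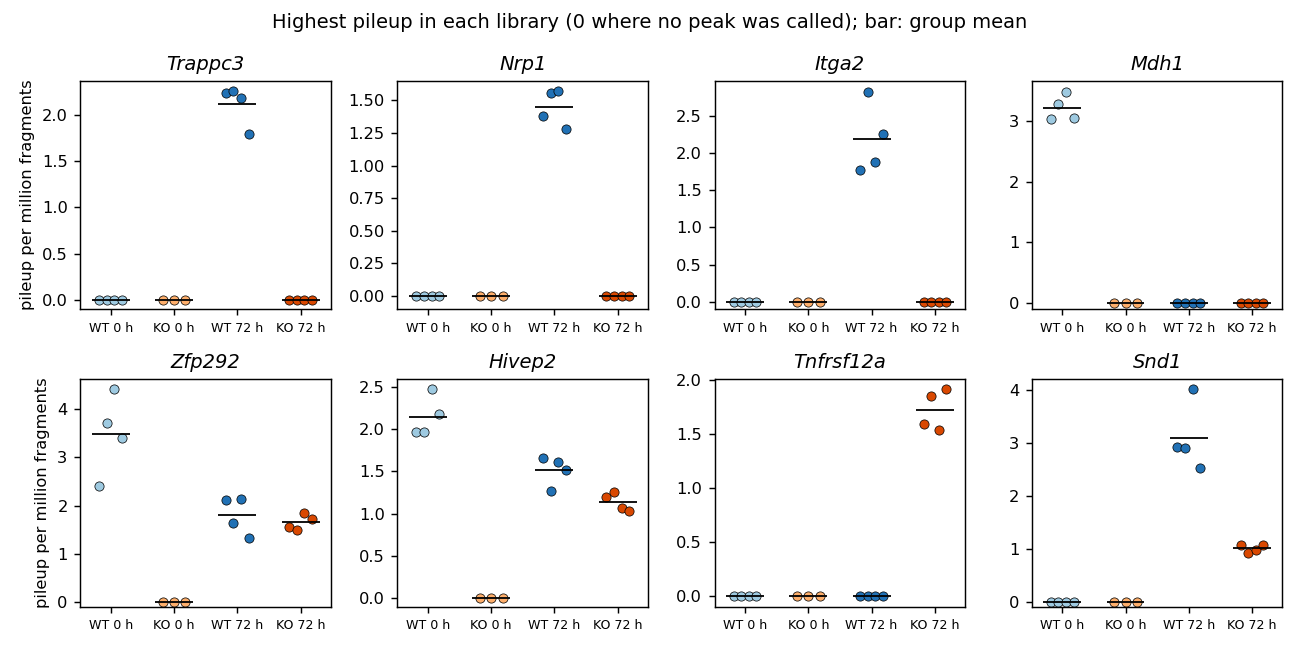
Highest pileup per 1 M fragments in every library for 8 regions named by their nearest gene, with untreated and activated WT and KO on the x axis, 0 where no peak was called and the group mean as a bar. The first 3 regions have peaks in activated WT alone, Mdh1 in untreated WT alone, Zfp292 and Hivep2 lack them in untreated KO alone, Tnfrsf12a has them in activated KO alone, and the Snd1 region has them in both activated groups, at 2.53 to 4.02 in WT and 0.928 to 1.08 in KO.

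Bach2, a repressor that keeps T cells quiescent, was the gene with most called regions, 4 of its 73 tested, of which 3 were gained in wild type only. Over all tested regions 0.582% were called. The values of the first (chr4:32334737-32335118) were 0.770, 1.09, 1.23 and 0.894 in activated WT (−3.43, adjusted p = 0.000175). A peak of the merged WT list at 0 h overlaps this region, with a highest pileup of 9.94 that may lie outside it. The 4 untreated WT libraries had no peak there, so 9.94 does not show the level within the region. The other 2 gains (−2.82 and −2.80) had values between 0.446 and 0.689, and merged KO values of 0.341 and 0.330, and neither call held with missing peaks at the lowest pileup.

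In the merged KO list at 72 h, 180 of the 263 regions (68.4%) had a peak. The median ratio of KO to WT in these was 0.571, against 0.861 over the 21176 regions called in all 15 libraries, and 42 had a ratio under 0.5. The 263 regions were chosen by peaks in the same libraries that the merged lists pool. A ratio below 0.861 is favoured by that choice. In 67 regions the pooled KO pileup exceeded 0.402, the highest of the lowest pileups of any list. The remaining 83 had no peak in the pooled KO list. With missing peaks at the lowest pileup 40 of the 263 kept their call, among them Trappc3, Itga2, Irak3, Nrp1 and Rab22a but not Sesn1. Depth moved with the group: activated KO libraries had 21.4 to 24.8 M fragments and activated WT libraries 24.7 to 27.6 M, and the part of depth in the pattern was not tested.

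**Figure D3:**
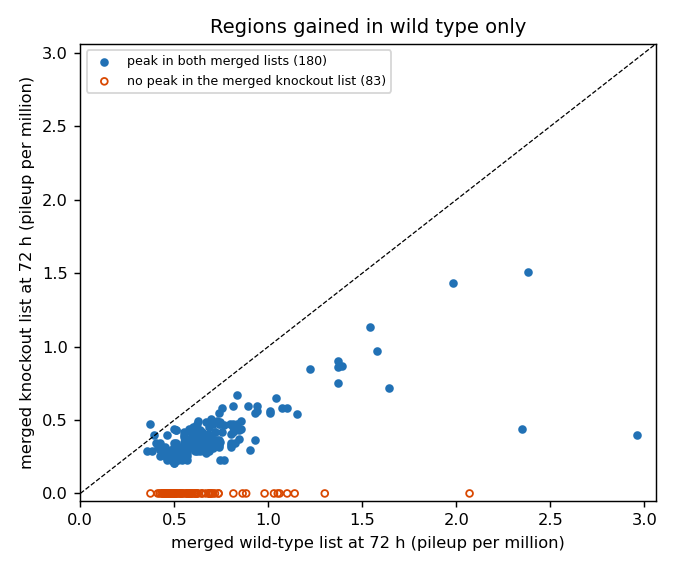
Pileup per 1 M fragments in the authors' merged lists at 72 h for the 263 regions gained in wild type only, wild type on the x axis and knockout on the y axis. In 180 regions both lists hold a peak and 2 of them lie above the dashed line of equal values; the 83 open circles have no knockout peak.

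The opposite pattern, gain in knockout only, had 15 regions. Tnfrsf12a, the receptor of the cytokine TWEAK, led it at the gene's boundary (chr17:23675672-23676114). Its values were 1.60, 1.86, 1.54 and 1.92 in activated KO and 0 in the other 11 libraries (4.19 ± 0.31, adjusted p = 2.49e-05). The merged lists had 1.53 in activated KO and no peak in the other groups. Aff1, a subunit of the super elongation complex, had 0.801, 0.969, 0.939 and 1.26 in activated KO (chr5:103745523-103746299, 3.43, adjusted p = 0.000163), but a merged WT peak of 0.667 beside 0.903 in KO.

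A second large group lay in untreated cells. In 68 regions only the untreated WT libraries had peaks, so that wild type lost them and knockout had none to lose. Mdh1, the cytosolic malate dehydrogenase, had 3.03, 3.28, 3.48 and 3.05 in untreated WT and 0 in the other 11 libraries (chr11:21569147-21569563, 5.05 ± 0.29, adjusted p = 9.48e-06). Its merged values at 0 h were 3.04 in WT and 1.91 in KO. Atp6v1g1, a subunit of the vacuolar proton pump, had 2.45, 2.21, 2.1 and 2.14 (chr4:63548028-63548769, 4.54 ± 0.30, adjusted p = 1.39e-05), and its merged peak was in untreated WT alone, at 2.06. Frmd8 (4.62) and the RNA-binding regulator Arid5a (4.26) had merged KO peaks at 1.30 and 1.22.

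Satb1, a chromatin organizer needed in thymocyte development, had 1.29, 1.14, 1.5 and 1.66 in untreated WT (chr17:51820361-51820711, 3.89, adjusted p = 5.18e-05), with merged values of 1.33 in WT and 0.868 in KO. Runx1, which acts in T cell development, had 0.580, 0.759, 0.769 and 0.594 (chr16:92715582-92716197, 2.95, adjusted p = 0.000419). Tbx21, which encodes the Th1 regulator T-bet, had 0.714, 0.483, 1.01 and 0.633 (chr11:97108895-97109484, 2.98, adjusted p = 0.000726). Neither Runx1 nor Tbx21 had a merged peak in KO at either time. With missing peaks at the lowest pileup the calls at Runx1 and Tbx21 were lost, and 20 of the 68 regions kept theirs.

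In 95 regions peaks were missing in untreated KO alone and present in the other 3 groups, so the gain was counted in knockout. Zfp292, a zinc finger protein, had 2.41, 3.72, 4.41 and 3.40 in untreated WT, 0 in untreated KO, 1.32 to 2.14 in activated WT and 1.49 to 1.84 in activated KO (chr4:34881005-34881510, 5.04 ± 0.31, adjusted p = 9.76e-06). Activated groups overlapped, and the pooled untreated KO value was 1.98 against 3.17 in WT. Hivep2, a zinc finger protein that binds NF-kB-like sites, had 1.96, 1.97, 2.47 and 2.18 in untreated WT and 1.27 to 1.66 and 1.03 to 1.25 in activated WT and KO (chr10:14042618-14043410, 4.1 ± 0.25, adjusted p = 9.48e-06). Its pooled untreated values were 2.09 and 1.18.

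Tbk1, a kinase that activates interferon regulatory factors, belonged to this pattern with a strong gain in both genotypes. It had 0.803, 0.621, 0.850 and 0.871 in untreated WT and 0 in untreated KO, then 2.64 to 4.71 in activated WT and 2.18 to 3.18 in activated KO (chr10:121580278-121581251, 2.86, adjusted p = 0.000222). The pooled KO list at 0 h had no peak there either. Ubash3b, a phosphatase that restrains T cell receptor signalling, had 0.892, 0.621, 0.769 and 0.713 in untreated WT and 0.470 to 0.888 in activated KO (3.08, adjusted p = 0.000188).

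With missing peaks at the lowest pileup 7 of the 95 kept their call, Zfp292 and Hivep2 among them, and Tbk1 and Ubash3b did not. Over the 95 regions the pooled untreated KO list had a peak in 57, with a median KO to WT ratio of 0.575, against 0.739 over the regions in all 15 libraries. Over the 68 regions of untreated WT alone it had a peak in 34, with a ratio of 0.589. Both sets were chosen by peaks in the libraries that are pooled, which favours ratios below 0.739. KO library 3 at 0 h is 1 of 3 libraries that had to lack a peak. Without it, 210 regions had a positive and 407 a negative interaction, and 480 of the 487 were still called. Leaving out KO library 1 or 4 at 0 h, or WT library 1 at 0 h, raised the positive calls to 754, 484 and 482. Leaving out WT library 4 at 72 h raised the negative calls to 752. The cause of these rises was not tested, and 476 of the 487 regions were called whichever library was left out. A region with one of the patterns keeps it when 1 library is left out. The kept calls, 480 and 476, therefore say little about stability.

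Smaller patterns concerned regions that were open before activation in both genotypes. In 18 regions peaks were missing in activated KO alone. Itga4, the alpha 4 integrin chain that T cells use to enter inflamed tissue, had 4.46, 4.90, 4.73 and 5.03 in untreated WT and 3.28, 1.95 and 3.6 in untreated KO. After activation it had 1.62, 1.34, 1.68 and 1.24 in WT and 0 in KO (chr2:79259438-79260263, −3.24, adjusted p = 8.02e-05), and the pooled values were 1.42 and 0.991. Lmna, which encodes the nuclear lamins A and C, had 1.01, 1.05, 1.34 and 0.855 in activated WT and 0 in activated KO, in single and pooled lists alike (chr3:88492680-88493281, −3.15, adjusted p = 0.00526). None of the 18 calls held with missing peaks at the lowest pileup.

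In 4 regions peaks were missing in activated WT alone. Trio, a guanine nucleotide exchange factor, was the strongest: 6.34 to 8.21 in untreated WT and 6.67, 3.29 and 7.55 in untreated KO, 0 in activated WT, and 1.11, 1.78, 1.62 and 1.92 in activated KO (chr15:27827583-27828644, 4.41 ± 0.37, adjusted p = 4.03e-05). The pooled list of activated WT also had no peak there, and that of activated KO had 1.53. Another 4 regions had peaks in untreated KO alone, and the pooled WT list at 0 h had peaks in all 4. Their pooled WT to KO ratio at 0 h had a median of 1.18 and ran from 0.824 to 1.53, so the pooled lists do not show lower values in WT throughout.

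Of the other 20 called regions, Ikzf4, an Ikaros family factor of regulatory T cells, had the largest interaction of all called regions, 5.96 ± 0.91 (chr10:128668669-128669300, adjusted p = 0.00291). Untreated WT had 0.892, 1.10, 0 and 1.11, activated KO had 0.890, 1.13, 0.683 and 0.982, and the other 2 groups had 0. The pooled lists held a peak in all 4 groups, from 0.678 to 1.06, and so show no such contrast. Foxp1, which maintains naive T cells, had 0.608, 0.689, 0.651 and 0.505 in activated WT, 0.388 in 1 untreated KO library and 0 elsewhere (chr6:98977730-98978285, −3.59, adjusted p = 0.0105). The Ikzf4 call held with missing peaks at the lowest pileup and the Foxp1 call did not.

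Regions with complete activation changes were then followed into the other genotype. In wild type 11981 regions had a peak in all 4 activated libraries and no untreated one. In knockout 7726 of these (64.5%) had a peak in all 4 activated libraries, 2095 in 3, 1186 in 2, 702 in 1 and 272 (2.27%) in none. Of the 10791 complete gains of knockout, 9299 (86.2%) had a peak in all 4 activated WT libraries and 17 (0.158%) in none. Of 2805 complete losses in wild type, 1435 (51.2%) had peaks in all 3 untreated KO libraries, 981 (35.0%) in 2, 316 (11.3%) in 1 and 73 (2.6%) in none, and 1 of these 3 libraries is library 3 with 29994 peaks. Of 1868 complete losses in knockout, 1648 (88.2%) had peaks in all 4 untreated WT libraries. Activated WT libraries also held more peaks (59243 to 69086) than activated KO libraries (55519 to 61478), with ranges that overlap through WT library 4. Untreated WT libraries held 39807 to 47790 and untreated KO libraries 29994 to 45589. The shares were not corrected for this.

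**Figure D4:**
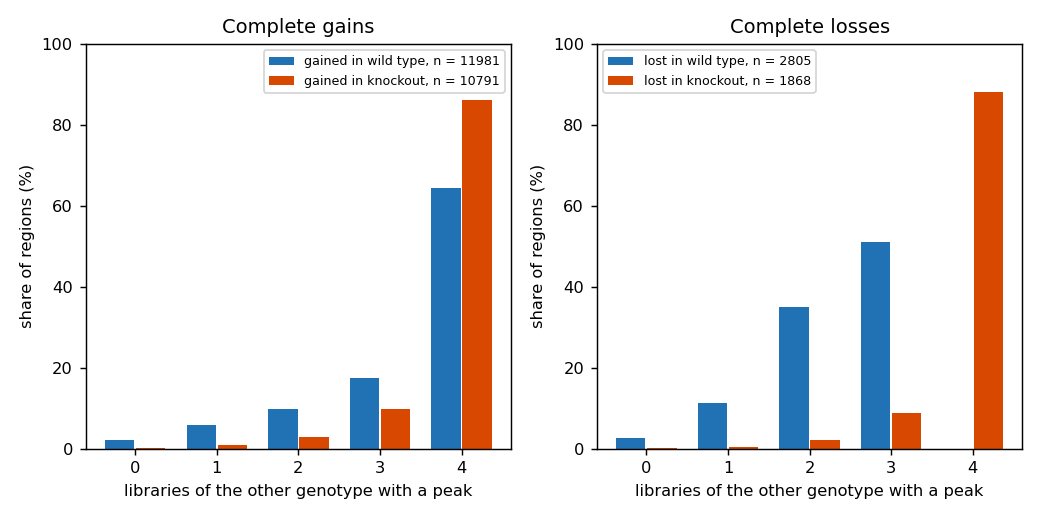
Share of complete gains (left) and complete losses (right) against the number of libraries of the other genotype that had a peak in the state with peaks (activated for gains, untreated for losses; untreated knockout has 3 libraries). Complete gains of wild type reached all 4 knockout libraries in 64.5% of regions, and those of knockout reached all 4 wild-type libraries in 86.2%.

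Where both genotypes gained a region completely, the size of the gain could be compared without missing peaks in activated cells. In 7420 regions all 8 activated libraries had a peak and no untreated one did, and the median log2 gain was 3.69 in wild type and 3.45 in knockout. The interaction had a median of −0.22 and ran from −0.69 (5th percentile) to 0.20 (95th), and 1 of the 7420 regions (0.0135%) was called. With untreated values of 0, this interaction is the KO minus WT difference at 72 h. That difference had a median of −0.21 over all tested regions, so the smaller gain is not particular to these regions. In 1144 regions lost completely by both, the median losses were −4.31 and −3.88 and none was called (28 had an unadjusted p under 0.05). With activated values of 0, their interaction (median 0.42) is the KO minus WT difference at 0 h with its sign turned. That difference had a median of −0.37 over all tested regions and −0.50 over those with peaks in all 15 libraries. Of the 21176 regions with peaks in all 15 libraries none was called either (301 at an unadjusted p under 0.05), also when limma was fitted to them alone (456 at an unadjusted p under 0.05). Their interaction lay between −0.80 and 1.34.

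The 1 called region of the shared gains lies near Snd1, which encodes a staphylococcal nuclease domain protein that acts in transcription and RNA processing, on the chromosome that also carries Irf5. It lies 10082 bp from Snd1 (chr6:28469623-28470255). Values were 2.92, 2.90, 4.02 and 2.53 in activated WT, 1.07, 0.928, 0.982 and 1.08 in activated KO, and 0 in all untreated libraries. The activated groups did not overlap (interaction −1.5 ± 0.28, adjusted p = 0.0219), and the pooled values were 2.79 and 0.914. It also passed with missing peaks at the lowest pileup and whichever library was left out.

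Snd1 had 3 called regions of 35 (8.57%), and 11 (31.4%) had an unadjusted p under 0.05, 7 negative and 4 positive. The 7 negative ones lie at and within its first part and were open in activated cells alone. One of them (chr6:28593364-28594169) had 2.59, 2.54, 2.41 and 2.45 in activated WT and 1.47, 1.57, 1.07 and 1.31 in activated KO (−0.85, unadjusted p = 0.00724, adjusted p = 0.51). Another (chr6:28623691-28624021) had 0.486, 0.762, 0.421 and 0.428 in activated WT and no peak in KO (−2.61, adjusted p = 0.00211, lost with missing peaks at the lowest pileup).

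The 4 positive ones lie towards the other end of Snd1, and untreated KO had no peak in any of them. The called one (chr6:28920986-28924256) had 0.982, 1.41, 0.526 and 1.23 in untreated WT and 0 in the other groups (3.43, adjusted p = 0.000525, likewise lost). A neighbour (chr6:28929168-28929750) had peaks in all 8 WT libraries and no KO library: 2.94, 6.41, 1.82 and 4.55 at 0 h and 0.892, 2.39, 0.651 and 1.67 at 72 h (1.44, unadjusted p = 0.0289, adjusted p = 0.57). At both times WT libraries 2 and 4 were above libraries 1 and 3. Because knockout is 0 at both times, its interaction is the loss seen in wild type. The DNA sequence of the knockout mice around Irf5 was not analysed here. At Snd1 a difference in accessibility and a difference in sequence linked to the knockout allele cannot be told apart.

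From the first Snd1 region to Irf5, 78 regions were tested over 1067 kb, and 3 (3.85%) were called, all of them Snd1's. An unadjusted p under 0.05 was found in 15 (19.2%, against 6.61% of all tested regions), 10 of them negative. The window from 28 to 29 Mb of chromosome 6 had 14 of 55 regions (25.5%) under that value. This was the highest share among the 1514 windows of 1 Mb with at least 20 tested regions; the next had 25.0% of 20. The window was picked out after its values were seen, and its share is a description.

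**Figure D5:**
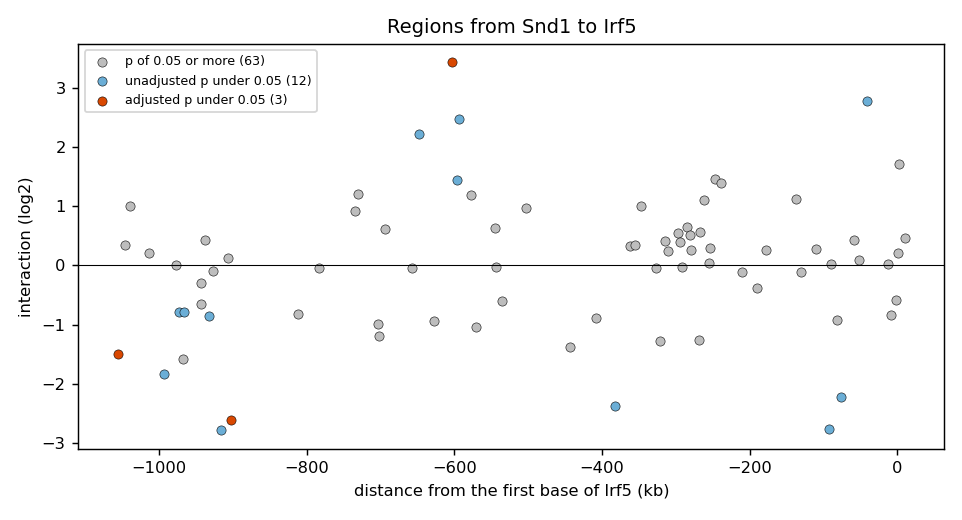
Interaction (log2, y axis) of the 78 tested regions from Snd1 to Irf5 against distance from the first base of Irf5 in kb. Negative values cluster at the far left, at the start of Snd1, and the called region with a positive value lies near Snd1's other end; the regions at Irf5 itself are not called.

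Irf5 had 5 tested regions and none was called. The one with the lowest p (chr6:29528398-29529417) had 1.70, 1.86, 1.98 and 1.70 in untreated WT and 1.16, 0.956 and 0 in untreated KO, the 0 being library 4, and 0.892 to 1.53 and 0.854 to 1.31 in activated WT and KO (1.71 ± 0.87, unadjusted p = 0.069). KO libraries had peaks at Irf5, so these regions do not check the genotype. Dock2, a regulator of lymphocyte migration that is mutated in some Irf5-deficient mouse colonies, had 20 tested regions and none called. Its lowest p (0.0228, interaction 1.78) was at a region with low peaks in 3 of 4 activated KO libraries (chr11:34515300-34515647), and peaks do not test for that mutation.

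Genes of 23 lists on T cell and IRF5 biology had 3497 tested regions near them, of which 8 were called positive and 11 negative (0.543%, against 0.582% of all regions), with a median interaction of 0.21 against 0.16. The lists were put together with earlier results of these data known. None of the 84 regions of interferon-stimulated genes was called (4 at an unadjusted p under 0.05, median 0.25), and none of the 73 regions of the 9 interferon regulatory factors, Irf5 included (4, median 0.23). Irf4, needed for activated T cells to expand, had the lowest p among those factors (0.00685, interaction 3.19, adjusted p = 0.51). None of the 57 regions of cytokines linked to IRF5, such as Il10 and Il12b, was called (1 at an unadjusted p under 0.05). The Toll-like receptor and MyD88 pathway had 2 of 122, Irak3 and Tbk1, in opposite directions.

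Shares called in the lists that follow stand against 0.582% of all tested regions. Naive and quiescence genes had 8 of 501 regions called (1.6%), 3 positive and 5 negative. Bach2 held 4 of these 8, and Foxp1 and Satb1 were among the other genes. Adhesion and migration genes had 4 of 229 (1.75%), of which 1 was positive, with Itga4 among the genes. The AP-1 and BATF family had 4 of 203 (1.97%), all of them the same Bach2 regions. Regulatory T cell genes had 2 of 177 (1.13%), at Ikzf4 and Nrp1. T cell identity had 2 of 384 (0.521%), Runx1 and Satb1, and proximal T cell receptor signalling 1 of 418 (0.239%). Th1 and cytotoxic genes had 1 of 182 (0.549%), mTORC1 genes 1 of 98 (1.02%), and genes induced by the T cell receptor 1 of 275 (0.364%, Ikzf4). No region was called near the genes of Th2 (106 regions), Th17 (149), follicular helper and inhibitory receptors (172), cell cycle (150), glycolysis (127), glutamine and amino acid metabolism (124) or ribosome biogenesis (53). In these 7 lists 1 to 14 regions had an unadjusted p under 0.05. In lists of this size, having no call is close to the share over all tested regions and says little about the genes.

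Among markers of other cell types, 1 of 95 regions of CD8 and NK cell genes was called (1.05%, against 0.582% of all tested regions), the Itga2 region described above. None was called of 61 for B cells or 74 for myeloid cells, where 9 each (14.8% and 12.2%) had an unadjusted p under 0.05. In the CD8 and NK cell list 10 (10.5%) had, against 6.61% of all tested regions. The B cell list had a median interaction of −0.28, against 0.16 over all regions. Its regions in all 15 libraries had 0.30 against 0.29. In bulk samples fewer cells of a type and less signal per cell cannot be told apart, and the part of other cells in these results was not tested.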

How the data were processed

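ATAC-seq peak lists of 15 libraries and 4 merged lists were used; the final lists per condition were not used. Per the submitters' processing notes, the tools were Trim Galore 0.5.0 (trimming), Bowtie2 2.2.9 (alignment, build mm10) and MACS2, which is version 2.1.1.20160309 per the file headers. Per the file headers, MACS2 used no control sample and kept peaks with a q value under 0.05. The deposited pileup is the fragment coverage signal at the summit, the deposited fold enrichment is its ratio to the local background, and the deposited −log10 q value is the score of a peak against that background. Per the file headers, WT library 4 came at both times from an alignment numbered 5. The untreated KO libraries are numbered 1, 3 and 4, as in their titles and in the alignments the headers name, while their files carry running numbers.

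Peaks overlapping by at least 1 bp were merged (bedtools 2.31.1), and regions in at least 2 libraries were kept. The highest pileup of a region was scaled per 1 M fragments after filtering (20.5 M to 29.0 M per library), and log2(value + 0.1) was fitted to the 4 groups with limma 3.58.1 (trended empirical Bayes, R 4.3.3). The added 0.1 makes a log2 difference understate changes between low measured values. Where a missing peak counts as 0, the difference can instead overstate the change. Regions gained in wild type only had a median interaction of −2.89. Of these 263 regions, 180 had a peak in the merged KO list at 72 h, with a median KO to WT ratio of 0.571. Fits were tested on simulated data. The interaction of single library values was tested by exact permutation of genotype within time (2450 arrangements). Regions were assigned to the nearest gene, within 100 kb for the gene lists, in a table of GRCm38.p6 without strand; no genome sequence was used here.

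The members and gene lists were chosen with earlier results of these data known. Genes were named by a rule: Irf5 and Dock2, the 12 regions per direction with the smallest p (1 per gene), up to 3 genes per list, and up to 6 regions per pattern by the −log10 q of the merged list. One gene that the rule named, and results that need it, are not reported here. Promoter regions and further Snd1, Bach2 and Foxp1 regions were picked after their values were seen. Alternatives changed the pseudocount, the value of a missing peak, the region filter, scaling, the peak measure and threshold, overlap, weights and blocks, and left out each library; 2 that leave out KO library 3 at 0 h were added after the data were seen.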

Additional observations from a re-analysis of the deposited data

Results flagged for a closer look

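A test of the difference between the genotypes' activation changes (limma, adjusted p under 0.05) singled out the named regions that follow. Positive interactions were 5.05 at Mdh1, 4.1 at Hivep2, 5.04 at Zfp292, 4.54 at Atp6v1g1, 4.62 at Frmd8, 4.18 at Rcsd1, 4.26 at Arid5a, 3.6 at Dthd1, 4.11 at Plch2, 4.19 at Tnfrsf12a, 3.16 at Rapgef5 and 3.59 at Tmem144. Negative ones were −4.46 at Trappc3, −4.49 at Itga2, −4.16 at Mat2b, −4.01 at Sap30l, −3.95 at Nrp1, −3.97 at Cse1l, −4.68 at Rab22a, −3.75 at Mbnl1, −3.84 at Sema4b, −3.62 at Rnf19a and −3.91 at 4921524J17Rik.

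A single library far from the other 3 of its group was found in 5 of 46 groups of values, where chance gives about 1 in 20. The Trappc3 region was lowest in 1 activated WT library (1.79), the Dthd1 region in 1 activated KO library (0.842), and the Rnf19a region was highest in 1 activated WT library (1.30). Peaks per library were lowest at 39807 among untreated WT and at 55519 among activated KO libraries.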

How the results depend on the processing

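The 24 regions named by the smallest p were 12 per direction. Of these, 6 (Atp6v1g1, Trappc3, Dthd1, Sap30l, Nrp1 and Cse1l) passed under every alternative in which they were tested, and none of the 24 reversed. With the same number of peaks from each library, 3 were the same, 6 were weaker and the others were not tested. Passing does not show absence in knockout: of the 6, only Atp6v1g1 had no pooled KO peak, and Trappc3 had 1.43 in pooled activated KO. Positive and negative calls (192 and 295) became 101 and 177 with a pseudocount of 1, 44 and 50 with missing peaks at the lowest pileup, 106 and 100 with the same number of peaks taken from each library (4 of the 487 shared), and 0 and 0 in regions of all 15 libraries. Quantile normalization gave 87 negative calls and quality weights 478. A −log10 q of at least 5 gave 143 and 337, with 124 of the 487 shared. Leaving out 1 library gave 210 to 754 positive and 297 to 752 negative calls. Without KO library 3 at 0 h, the lowest-pileup setting gave 44 and 58. Centring moved the median interaction from 0.16 to −0.15. The labels do not say that replicate numbers pair libraries, so the numbers were not used as pairs. Same-numbered libraries correlated between −0.002 and 0.052 and differently numbered ones between −0.037 and 0.024, which does not settle the pairing. The replicate block by genotype and number gave 24 and 17 calls (26 shared), and a block by number 187 and 289. The cause of these moves was not tested.

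With peaks covering at least 0.5 of a region, 429 regions were gained in wild type only, 230 were in untreated WT only and 2 missing in activated WT only. At a −log10 q of 5, 9 were gained in knockout only, 1 was in untreated KO only, 63 were missing in untreated KO and 30 in activated KO. Leaving out 1 library gave 264 to 691 gained in wild type only, 15 to 84 in knockout only, 68 to 229 in untreated WT only, 4 to 70 in untreated KO only, 95 to 472 missing in untreated KO, 18 to 47 in activated KO, 0 to 24 in untreated WT and 4 to 16 in activated WT. The interaction in peaks per library ran from −0.09 to 0.21 and in median signal from −0.08 to 0.54, both negative only without KO library 3 at 0 h. The part of depth in these counts was not tested.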
